A study of Homo sapiens with 16 samples.

Results

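The genes of the proteasome were followed in T47D, an established human breast cancer cell line of luminal type. The members are the protein-coding genes whose symbol is PSM, a letter from A to G and a number. The rule found 48 of the 20120 protein-coding genes in the expression table, which lists 78894 genes and other features besides the spike-in controls. Of these, PSMB8, PSMB9, PSMB10, PSME1 and PSME2, the 5 genes that interferon is known to induce, were set against the 43 others. The rule used symbols alone and no measured value, but the members were chosen with earlier results of these data known.

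The cells sequenced bore a control guide or an FAH knockout. FAH encodes fumarylacetoacetate hydrolase, the final enzyme in the breakdown of tyrosine. Both genotypes were grown in DMEM high glucose with 10% FBS and were given vehicle (DMSO in the titles) or Abemaciclib, which blocks the kinases CDK4 and CDK6 that drive entry into S phase, at 500 nM for 3 days. The 4 groups held 4 libraries each. The labels do not say whether the knockout cells were 1 clone or a pool, nor whether replicate libraries were grown as separate cultures. The p-values therefore rest on the spread among these libraries alone, and that spread could be technical.

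The 26S proteasome degrades proteins tagged with ubiquitin. Its 20S core is a stack of rings of alpha subunits (PSMA genes), which form the gate, and beta subunits (PSMB genes), of which PSMB5, PSMB6 and PSMB7 carry the catalytic sites. The 19S regulatory particle, made of ATPases (PSMC genes) and non-ATPase subunits (PSMD genes), recognises and unfolds the substrate. In lymphoid cells, and in other cells exposed to interferon gamma, newly built cores take PSMB8 in place of PSMB5, PSMB9 in place of PSMB6 and PSMB10 in place of PSMB7. This immunoproteasome favours peptides that fit MHC class I, and PSME1 and PSME2 form PA28, a cap that opens the core without using ATP.

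In short, PSMB8, PSMB9, PSMB10 and PSME2 were higher in knockout than in control cells under both treatments, while most constitutive subunits differed little between the genotypes under vehicle and were higher in knockout cells, by less, under abemaciclib. Most constitutive subunits were lower with abemaciclib, and PSMB9 had the largest decrease of all members. The unit throughout is the CPM, counts per 1000000 assigned reads, as mean ± SD of 4 libraries. CPM do not take gene length into account, so levels are compared between libraries and not between genes.

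The starts of the inducible genes are shown first, since their promoters are known to be read by interferon-regulated factors. Promoter windows of 250 bases before to 50 bases after the annotated start were taken from RefSeq (GRCh38.p14) by gene symbol, and 42 of the 48 members had at least 1. Below are the stretches from 150 bases before the start through its first 30 transcribed bases, 5′ to 3′ on the gene's own strand. Capitals mark every match to 1 of 3 motifs, each searched on both strands. These were the core of the interferon-stimulated response element (GAAANNGAA, bound by IRF factors), an NF-kappaB core (GGGANNTTC) and the antioxidant response element core (TGACNNNGC), which resembles sites of NFE2L1 and NFE2L2. TAP1, the gene of a peptide transporter subunit, is shown because it starts 488 bases from PSMB9 on the opposite strand.
PSMB8 (chr6:32844018-32844197, minus strand): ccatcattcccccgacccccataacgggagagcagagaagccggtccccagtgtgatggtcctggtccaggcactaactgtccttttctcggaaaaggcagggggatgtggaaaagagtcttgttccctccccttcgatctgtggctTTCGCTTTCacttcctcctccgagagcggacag
PSMB9 (chr6:32854042-32854221, plus strand): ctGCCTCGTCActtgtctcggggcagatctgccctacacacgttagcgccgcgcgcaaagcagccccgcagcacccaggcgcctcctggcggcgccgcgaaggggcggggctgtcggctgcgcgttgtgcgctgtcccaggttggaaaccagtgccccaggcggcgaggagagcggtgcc
PSMB10 (chr16:67936821-67937000, minus strand): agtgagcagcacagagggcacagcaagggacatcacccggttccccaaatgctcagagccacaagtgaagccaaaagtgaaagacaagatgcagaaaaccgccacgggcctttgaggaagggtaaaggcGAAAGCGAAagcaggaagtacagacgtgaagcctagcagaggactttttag
PSME1 (chr14:24136044-24136223, plus strand): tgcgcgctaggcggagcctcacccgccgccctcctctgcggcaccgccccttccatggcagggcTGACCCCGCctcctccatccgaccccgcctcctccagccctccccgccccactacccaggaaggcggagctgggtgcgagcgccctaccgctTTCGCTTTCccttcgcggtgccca
PSME2 (chr14:24146581-24146760, minus strand): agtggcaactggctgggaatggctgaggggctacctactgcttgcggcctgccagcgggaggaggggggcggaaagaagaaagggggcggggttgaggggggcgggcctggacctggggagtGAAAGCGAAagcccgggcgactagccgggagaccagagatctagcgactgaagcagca
TAP1 (chr6:32853675-32853854, minus strand): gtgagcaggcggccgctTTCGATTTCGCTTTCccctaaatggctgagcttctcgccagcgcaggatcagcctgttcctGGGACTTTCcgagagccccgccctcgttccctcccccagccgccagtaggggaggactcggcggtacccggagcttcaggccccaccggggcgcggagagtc

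The response element core was found in the windows of 4 of the 5 inducible genes, PSMB8, PSMB10, PSME1 and PSME2, and in those of 4 of the 37 other members with a window, PSMA4, PSMB4, PSMC2 and PSMG4. It stood in 8.11% of all 35116 RefSeq windows and in 9.86% of genes. In PSMB10 and PSME2 the letters read GAAAGCGAA, and in PSMB8 and PSME1 the same letters stood on the other strand as TTCGCTTTC. Those 9 letters, which were taken from these 4 genes, occurred in 0.268% of all windows and in 0.33% of genes, given as a description only. They lay within 30 bases of the annotated start in all 4 genes, first base at -21 in PSMB10, -28 in PSME2, -3 in PSMB8 and 6 in PSME1, counted from the start as 0. PSMB8 has another annotated start, whose window held none of the 3 motifs. PSMG4, a 20S assembly chaperone, also carried these letters, at -33.

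PSMB9's own window did not hold the response element core. The TAP1 window held it in a pair of overlapping matches at -133 and -127 and an NF-kappaB core at -72. The nearest of these matches lay 355 bases upstream of the PSMB9 start, outside its window, in the DNA that the genes share. The NF-kappaB core was found in 0 of the 5 inducible genes and 1 of the 37 others, against 4.18% of all windows and 5.09% of all genes. The antioxidant element core was found in 3 of 5 (PSMB9, PSME1 and PSME2) and 12 of 37, against 13.3% of windows and 16.1% of genes. A match of letters describes the sequence and does not show that a factor binds there.

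**Figure D1:**
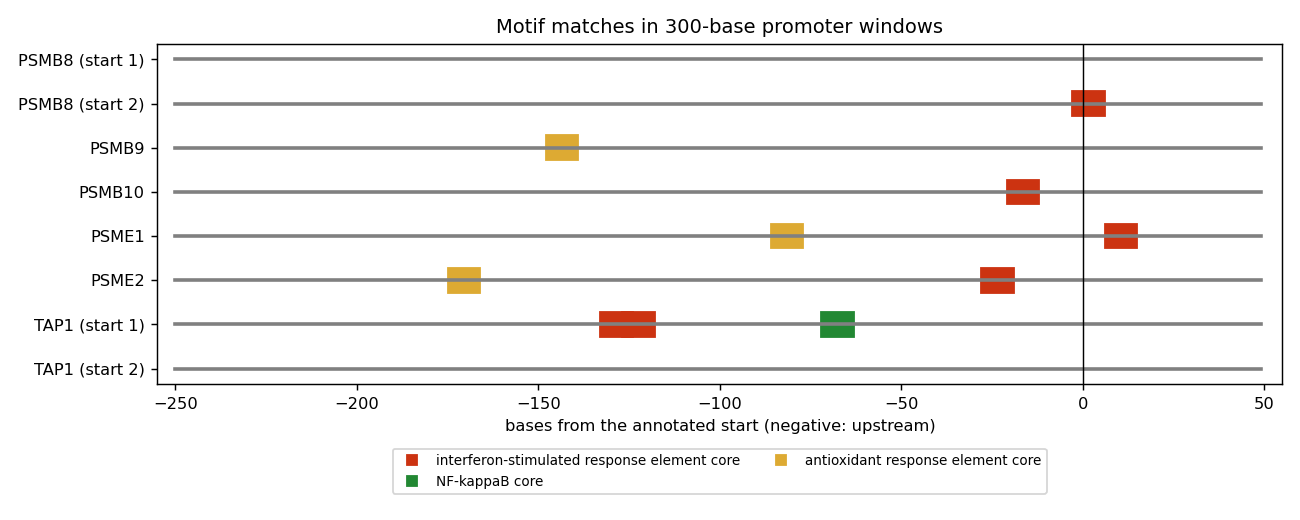
Matches to the 3 motifs in the RefSeq windows of the 5 inducible genes and TAP1, by distance in bases from each annotated start (line at 0), with colour giving the motif and a row for each annotated start. The response element core lies next to the start in PSMB8 (start 2), PSMB10, PSME1 and PSME2 and upstream in TAP1.

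The libraries held 9915776 to 11963093 assigned reads, so 1 read was worth 0.0836 to 0.101 CPM. FAH, the targeted gene, was at 26.5 ± 1.57 CPM in control and 6.65 ± 0.323 CPM in knockout libraries under vehicle, and at 24.0 ± 1.35 and 5.76 ± 0.744 CPM under abemaciclib, with no overlap (exact two-sided permutation test, p = 0.02857 each, the smallest that 70 assignments allow). All 8 luminal epithelial markers, ESR1 and KRT8 among them, were expressed, and they summed to between 9100 and 15518 CPM. They did not move alike between the genotypes. Under vehicle ESR1 was at 97.3 ± 3.24 CPM in control and 76.1 ± 3.18 CPM in knockout libraries. KRT8 was at 2700 ± 27.6 and 5048 ± 115 CPM. White blood cells carry the immunoproteasome without interferon, and their 10 markers summed to 14.2 to 15.2 CPM in control and 14 to 14.8 CPM in knockout libraries under vehicle. Under abemaciclib they summed to 12.5 to 13 and 14 to 16.4 CPM. The genotypes did not overlap there, as for the inducible genes, and the part of these markers in the genotype differences was not tested. None of the 10 was at 0 in all libraries, and the pan-leukocyte gene PTPRC had group means of 0.774 to 1.10 CPM.

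Of the 48 members, 46 passed the filter of at least 1 CPM in at least 4 libraries. The other two, PSMA8, an alpha subunit of the testis, and PSMB11, the beta subunit of the thymus, never exceeded 0.101 CPM, about 1 read, and were not tested. The 46 were tested within 1 limma fit of all 16218 genes that passed the filter, with 16 libraries and 4 group means. Differences are given in log2(CPM + 1), where those of low genes come out too small. A gene was called at a Benjamini-Hochberg adjusted p under 0.05 over all tested genes of a comparison. The comparisons share groups of libraries, so they are not independent of each other. In bulk RNA, a change in every cell and a change in the share of cells that express a gene cannot be told apart.

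PSMB9, which replaces the catalytic subunit PSMB6, lies on chromosome 6 from 32844136 to 32859585 on the plus strand (GRCh38, GENCODE 29). Control libraries under vehicle held 14.9, 11.9, 11.7 and 11.8 CPM of PSMB9, and knockout libraries under vehicle 25.8, 29.4, 24.8 and 22.8 CPM. Under abemaciclib control libraries held 5.98, 4.99, 4.67 and 6.26 CPM, and knockout libraries 14.3, 16.3, 14.4 and 13.7 CPM. Every knockout library was above every control library of its treatment, and every drug library below every vehicle library of its genotype. The group means were 12.6 ± 1.57, 25.7 ± 2.78, 5.48 ± 0.763 and 14.7 ± 1.14 CPM in the order given.

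The knockout difference of PSMB9 was 0.98 log2 units under vehicle (SE 0.0913, limma adjusted p = 1.7e-10) and 1.28 under abemaciclib (adjusted p = 3.5e-13), or 104% and 168% more CPM. With abemaciclib its CPM fell by 56.4% in control cells (log2 difference -1.07, adjusted p = 6.5e-12). In knockout cells it fell by 43.0% (-0.77, adjusted p = 2.1e-08). These were the largest changes of any member in each of the 4 comparisons. The difference between the 2 drug effects, 0.30, did not pass (SE 0.129, limma adjusted p = 0.141).

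PSMB8, which replaces PSMB5 and lies beside PSMB9 on the opposite strand (chromosome 6, 32840717 to 32844703), was 27.1, 27.1, 26.5 and 27.5 CPM in control libraries under vehicle and 41.5, 45.0, 42.8 and 41.6 CPM in knockout libraries. Under abemaciclib it was 22.3, 24.7, 22.6 and 27.1 CPM in control and 33.6, 39.6, 40.6 and 33.9 CPM in knockout libraries. The genotypes did not overlap under either treatment. The knockout difference was 0.64 (57.9% more CPM, SE 0.0631, limma adjusted p = 6.1e-10) under vehicle and 0.59 (52.6%, adjusted p = 4.9e-09) under abemaciclib.

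The drug differences of PSMB8 were small. In control cells its groups overlapped and the call was weak, at -0.16 (limma adjusted p = 0.0335). It was lost after median-of-ratios rescaling (-0.09), quantile normalization (-0.10), without the filter, without the trend of limma, and without any 1 of 5 libraries (control vehicle replicates 1, 2 and 4 and control abemaciclib replicates 1 and 3, adjusted p 0.0566 to 0.112). In knockout cells the value was -0.21 (adjusted p = 0.00786), and the call was lost after rescaling (adjusted p = 0.150) and quantile normalization (0.148). Exons of PSMB8, PSMB9 and the antisense gene PSMB8-AS1 overlap in the annotation, and the strand setting of the counting is not given in the sources used here. Reads of PSMB8 were whole in 16 of 16 libraries and those of PSMB9 in 14.

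PSMB10, which replaces PSMB7 (chromosome 16, 67934502 to 67937087, minus strand), had a like genotype difference and no drug difference that passed. It was 8.52, 8.13, 8.01 and 8.39 CPM in control and 13.8, 13.3, 13.6 and 13.7 CPM in knockout libraries under vehicle. Under abemaciclib it was 7.01, 8.94, 8.46 and 9.10 CPM in control and 12.8, 12.4, 11.5 and 13.4 CPM in knockout libraries. All knockout libraries were above all control libraries. The knockout difference was 0.66 (64.4% more CPM, SE 0.0808, limma adjusted p = 5.9e-08) and 0.53 (49.7%, adjusted p = 3.3e-06). Between drug and vehicle it differed by 0.01 (control cells, limma adjusted p = 0.923) and -0.11 (knockout cells, 0.303), with overlapping groups.

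The PA28 subunits did not move alike. PSME2 (chromosome 14, 24143362 to 24147570, minus strand) was 76.5, 66.7, 77.8 and 74.6 CPM in control and 90.9, 95.5, 93.1 and 96.4 CPM in knockout libraries under vehicle. Under abemaciclib it was 72.5, 70.0, 68.1 and 64.2 CPM in control and 83.4, 89.5, 91.2 and 95.1 CPM in knockout libraries, again without overlap. The knockout difference was 0.35 (27.2% more CPM, limma adjusted p = 5.4e-07) and 0.38 (30.7%, adjusted p = 1.2e-07). Neither drug difference passed (-0.10 and -0.07). Reads of PSME2 were whole in only 5 of 16 libraries, a sign that some were shared with an overlapping or near-identical gene, so its level is uncertain by an unknown amount.

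PSME1 (chromosome 14, 24136158 to 24138967, plus strand), the other PA28 subunit, was 161, 145, 142 and 151 CPM in control and 151, 136, 154 and 158 CPM in knockout libraries under vehicle, so the genotypes overlapped (-0.00, limma adjusted p = 0.980). Under abemaciclib it was 124, 131, 123 and 135 CPM in control and 158, 154, 145 and 142 CPM in knockout libraries, which did not overlap (0.22, adjusted p = 3.1e-04). PSME1 was lower with the drug in control cells (-0.22, adjusted p = 1.3e-04), a call lost after quantile normalization (-0.10, adjusted p = 0.0609). In knockout cells the drug difference was 0.00. The difference between the drug effects, 0.22, passed (SE 0.0649, limma adjusted p = 0.0213). It was lost without the filter, without the trend and after quantile normalization (adjusted p 0.0819 to 0.150), and without control vehicle replicate 1, knockout vehicle replicate 2 or knockout abemaciclib replicate 1 (0.0566 to 0.0661).

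**Figure D2:**
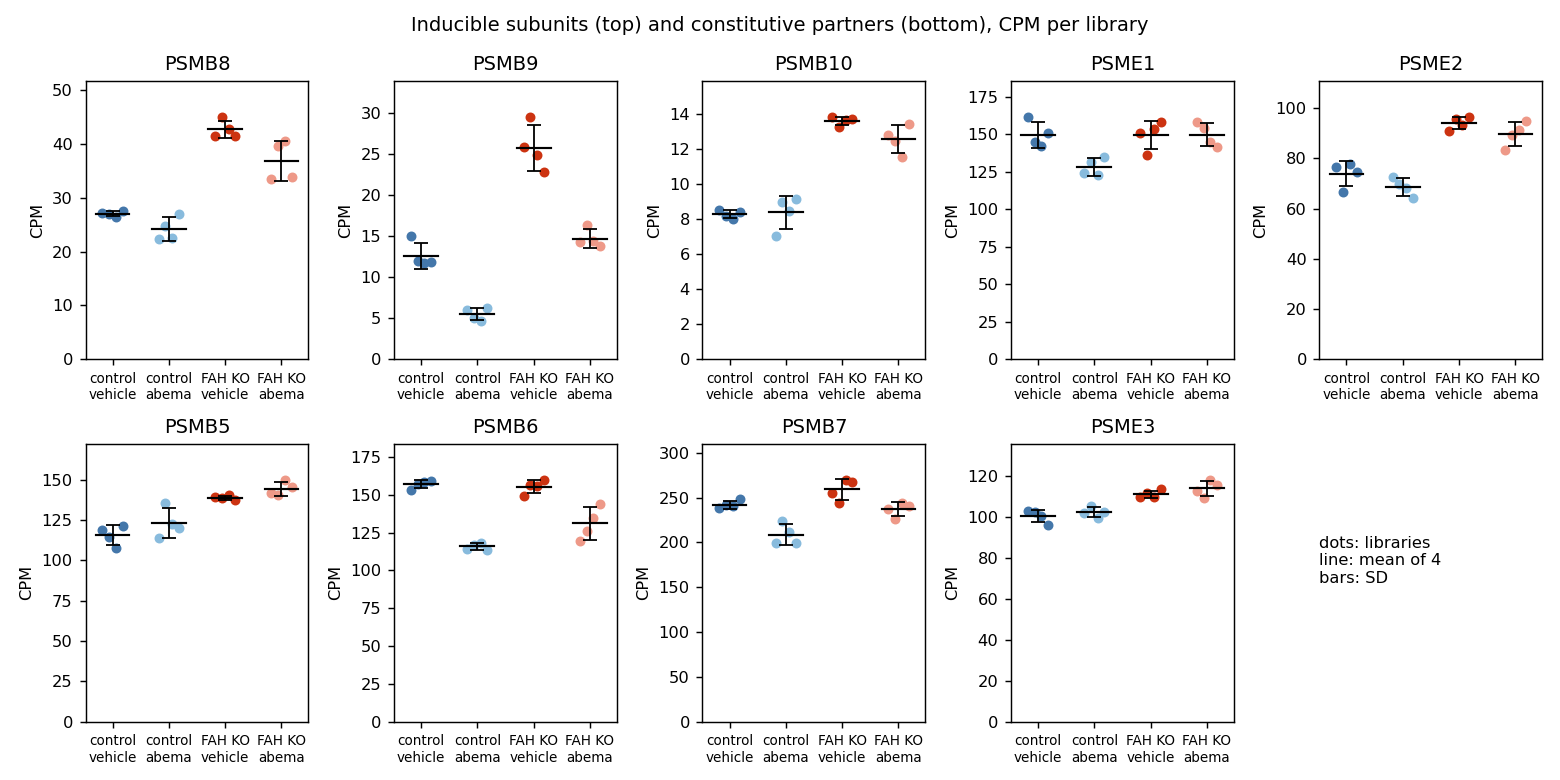
CPM of the 5 inducible genes (top) and of PSMB5, PSMB6, PSMB7 and PSME3 (bottom) in each library, with points for libraries, lines for the means of 4 and bars for the SD (abema, abemaciclib; KO, knockout). PSMB8, PSMB9, PSMB10 and PSME2 were higher in all knockout than in all control libraries of the same treatment.

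The catalytic subunits that the inducible ones replace differed less between the genotypes. PSMB5, the chymotrypsin-like subunit, was at 115 ± 6.10 CPM in control and 139 ± 1.14 CPM in knockout libraries under vehicle (0.26, limma adjusted p = 8.9e-06), and at 123 ± 9.15 and 144 ± 4.31 CPM under abemaciclib (0.23, adjusted p = 8.6e-05). Of 14 tested constitutive core subunits it was the one not called lower with the drug in either genotype. Its drug differences were 0.09 and 0.06, and after rescaling they passed as increases (0.16 and 0.15).

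PSMB6, the caspase-like subunit, was at 157 ± 2.62 CPM in control and 155 ± 4.40 CPM in knockout libraries under vehicle, with overlapping groups (-0.01, limma adjusted p = 0.817). Under abemaciclib it was at 116 ± 2.23 and 131 ± 10.7 CPM (0.17, adjusted p = 0.00158), below the vehicle libraries in both genotypes (-0.43 and -0.25). PSMB7, the trypsin-like subunit, was at 242 ± 4.46 and 259 ± 11.7 CPM under vehicle. That call, 0.10 with overlapping groups (adjusted p = 0.0393), was lost under 3 other settings, rescaling among them (0.03), and without any 1 of 5 libraries, control vehicle replicates 1, 2 and 3 and knockout vehicle replicates 3 and 4 (adjusted p 0.0705 to 0.139). Under abemaciclib PSMB7 was at 209 ± 11.8 and 237 ± 7.58 CPM (0.19, adjusted p = 2.5e-04). Its drug difference was -0.21 in control and -0.13 in knockout cells, the latter lost after rescaling (-0.03) and quantile normalization (-0.07).

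Within a library, the ratio of an inducible to its constitutive counterpart does not move with library scaling, except through the pseudocount. It was compared between groups only, as a description without a test. The log2 ratio of PSMB9 to PSMB6 was -3.55 ± 0.182 in control and -2.56 ± 0.165 in knockout libraries under vehicle, and -4.18 ± 0.198 and -3.08 ± 0.187 under abemaciclib. It was thus 0.99 and 1.11 higher in knockout cells, and it differed by -0.63 and -0.52 with the drug, with no overlap in any of the 4 comparisons. The log2 ratio of PSMB8 to PSMB5 was higher in knockout cells by 0.38 under vehicle and 0.36 under abemaciclib. With the drug it differed by -0.25 in control and -0.27 in knockout cells, again with no overlap.

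The log2 ratio of PSMB10 to PSMB7 went from -4.71 ± 0.0433 to -4.16 ± 0.0542 under vehicle and from -4.49 ± 0.140 to -4.14 ± 0.104 under abemaciclib, without overlap. With the drug it differed by 0.23 in control cells, where the groups overlapped with a pseudocount of 0.1, and by 0.02 in knockout cells, with overlap. The 3 inducible catalytic subunits thus shared the direction of the genotype difference in this ratio and not that of the drug.

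PSME3, which forms another PA28 cap in the nucleus and is not an interferon gene, served as the reference for PSME1 and PSME2. It was at 100 ± 3.04 CPM in control and 111 ± 1.82 CPM in knockout libraries under vehicle (0.14, limma adjusted p = 0.00215, lost after rescaling at 0.08). Under abemaciclib it was at 102 ± 2.41 and 114 ± 3.75 CPM (0.15, adjusted p = 0.00145). The log2 ratio of PSME2 to PSME3 was higher in knockout libraries by 0.20 and 0.23 without overlap. That of PSME1 to PSME3 differed by -0.15 in knockout cells under vehicle, without overlap, and by 0.07 under abemaciclib, with overlap.

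**Figure D3:**
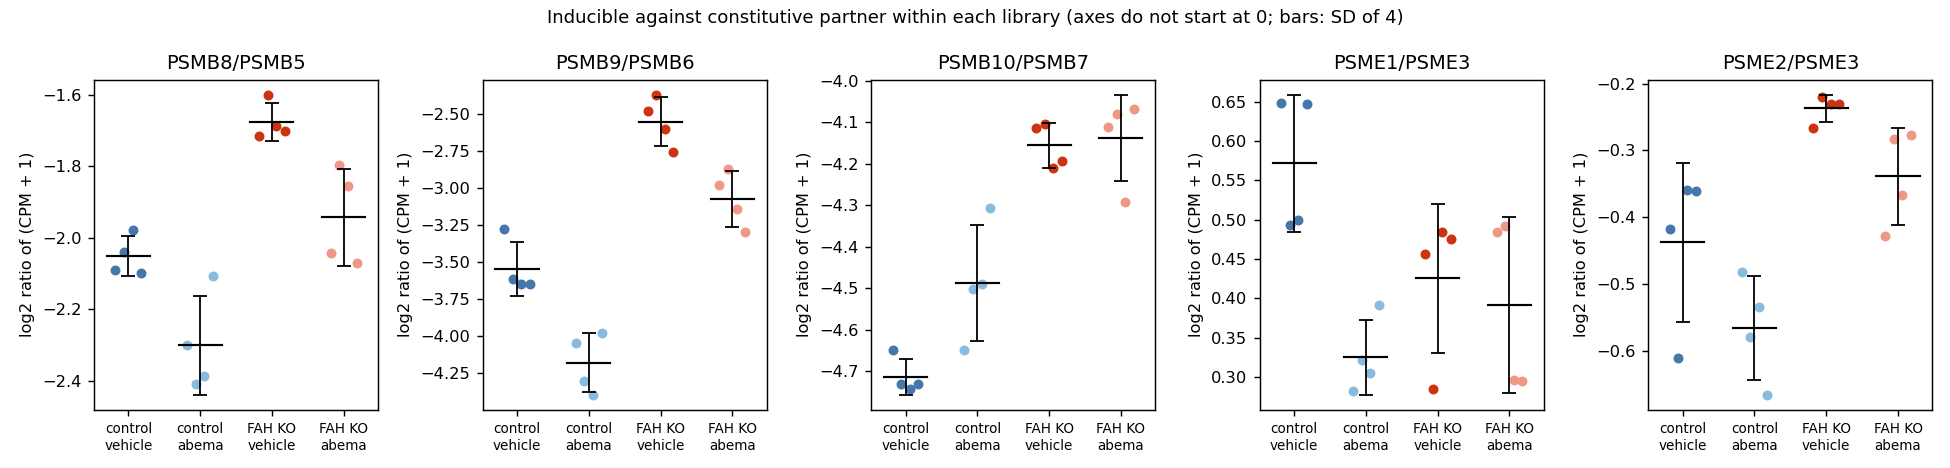
Log2 ratio of CPM + 1 of each inducible subunit to its constitutive counterpart, and of PSME1 and PSME2 to PSME3, in each library, with the mean and SD of 4 (axes do not start at 0). The knockout libraries lie above the control libraries of the same treatment for PSMB8, PSMB9, PSMB10 and PSME2.

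Across all members under vehicle, 21 of 46 were higher in knockout than in control cells and 3 lower, where 24.6% of all tested genes were higher and 13.1% lower. The calls comprised 4 of the 5 inducible genes (higher), with a median of 0.64, and 17 higher and 3 lower of the 41 others, with a median of 0.05, close to the median of all genes, 0.06. The count of the others depended on library scaling. After rescaling 6 were higher and 8 lower, with a median of -0.01, where 17.4% of all genes were higher and 18.4% lower, while the inducible genes kept 4 higher and a median of 0.58.

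Under vehicle the largest increase after those of PSMB9, PSMB10, PSMB8 and PSME2 was that of PSMD2, a scaffold of the 19S base (0.29, from 268 ± 3.43 to 327 ± 11.3 CPM). The members that were lower were PSMG3 (-0.16) and PSMG2 (-0.13), chaperones of 20S assembly, and the alpha subunit PSMA6 (-0.11). The call of PSMA6, a gene of partly shared reads, was lost without the filter or the trend and without control vehicle replicate 1 or 4 or knockout vehicle replicate 4 (limma adjusted p 0.0604 to 0.130). By class, 0 of 7 alpha subunits were higher and 1 lower, and 4 of 7 constitutive beta subunits higher. After rescaling 2 alpha subunits were lower, and 1 beta subunit, PSMB5, was higher and 1 lower. Of the 19S, 5 of 6 ATPases and 5 of 11 non-ATPase subunits were higher, or 1 and 3 after rescaling. The 3 remaining 20S regulators, PSME3, PSME4 (the cap PA200) and PSMF1 (an inhibitor of the core), were all higher, or 1 after rescaling. Of 3 chaperones of the 19S none was called, at limma adjusted p under 0.05, and their values lay between -0.08 and 0.07. After rescaling 1 of them was lower.

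Under abemaciclib 35 of 46 were higher in knockout than in control cells and 0 lower, against 18.6% of all genes higher and 11.3% lower. All 5 inducible genes were called, with a median of 0.53, and 30 of the 41 others, with a median of 0.16 against 0.04 over all genes. After rescaling these were 5 and 24, with 1 of the others lower, against 13.4% of all genes higher and 14.7% lower. The largest increases were those of PSMB9, PSMB8, PSMB10 and PSME2, given above, and of the ATPase PSMC4 (0.28, from 95.1 ± 3.26 to 116 ± 4.82 CPM, limma adjusted p = 6.4e-07). All 7 alpha subunits, all 7 constitutive beta subunits and all 6 ATPases were higher, between 0.12 and 0.28. After rescaling 5, 6 and 6 were. Of the non-ATPase subunits 6 of 11 were higher, and of the chaperones 1 of 3 for the 19S (PSMD5, 0.15) and 1 of 4 for the 20S (PSMG4, 0.14). After rescaling the non-ATPase count was 5 and neither chaperone was called. The call of PSMD5 was also lost after quantile normalization and without control abemaciclib replicate 4, and that of PSMG4 under 4 other settings and without any 1 of 5 libraries, control abemaciclib replicates 1, 2 and 3 and knockout abemaciclib replicates 1 and 3.

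Abemaciclib against vehicle went the other way. In control cells 37 of 46 members were lower and 1 higher, where 31.1% of all genes were lower and 19.6% higher. Of the inducible genes 3 of 5 were lower, with a median of -0.16, and of the others 34 of 41, with a median of -0.28 against -0.05 over all genes. After rescaling 2 of 5 and 29 of 41 were lower, and 4 of the others higher, where 24.7% of all genes were lower and 25.8% higher. As a description, all members together took 7439 ± 87.9 CPM with vehicle and 5953 ± 87.5 CPM with drug in control cells, and 7716 ± 39.0 and 6738 ± 44.7 CPM in knockout cells, without overlap.

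After PSMB9, the largest decreases in control cells were those of the ATPase PSMC3 (-0.77), the chaperone PSMG3 (-0.69), PSMA6 (-0.61) and the chaperone PSMG1 (-0.58). PSMC3 fell from 108, 100, 107 and 110 CPM to 61.0, 64.0, 61.1 and 62.2 CPM, with reads whole in 8 of 16 libraries. PSMG3 fell from 182, 180, 178 and 175 CPM to 102, 115, 111 and 115 CPM, and PSMG1 from 69.7 ± 2.18 to 46.6 ± 4.02 CPM. None of the 3 overlapped between vehicle and drug. All 7 alpha subunits, 6 of 7 beta subunits, 6 of 6 ATPases, 9 of 11 non-ATPase subunits and 4 of 4 chaperones of the 20S were lower. After rescaling the counts were 7, 6, 6, 6 and 4. PSME4, an overlapping gene of partly shared reads, was the 1 member that was higher (0.23, limma adjusted p = 4.0e-04), with values from 45.0 to 50.4 CPM and 50.0 to 57.8 CPM that overlapped.

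In knockout cells 34 of 46 were lower with abemaciclib and 0 higher, against 27.4% of all genes lower and 11% higher. Of the inducible genes PSMB9 and PSMB8 were lower (2 of 5, median -0.11), and 32 of the 41 others (median -0.20, over all genes -0.07). After rescaling 1 of 5 and 22 of 41 were lower, and 4 of the others higher, where 17.5% of all genes were lower and 19.9% higher. After PSMB9 the largest decreases were those of PSMC3 (-0.61, from 112 ± 7.83 to 72.8 ± 3.52 CPM), PSMG1 (-0.53), PSMG3 (-0.44) and the 19S subunit PSMD11 (-0.33, from 341 ± 11.4 to 271 ± 6.39 CPM). PSMB9, PSMC3, PSMG1 and PSMG3 were also among the 5 largest decreases in control cells. The 20S chaperones were lower in 4 of 4, or 3 of 4 after rescaling, and PSME3, PSME4 and PSMF1 in none, with values from -0.06 to 0.08 (limma adjusted p 0.05 or above). After rescaling 2 of these 3 were higher.

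**Figure D4:**
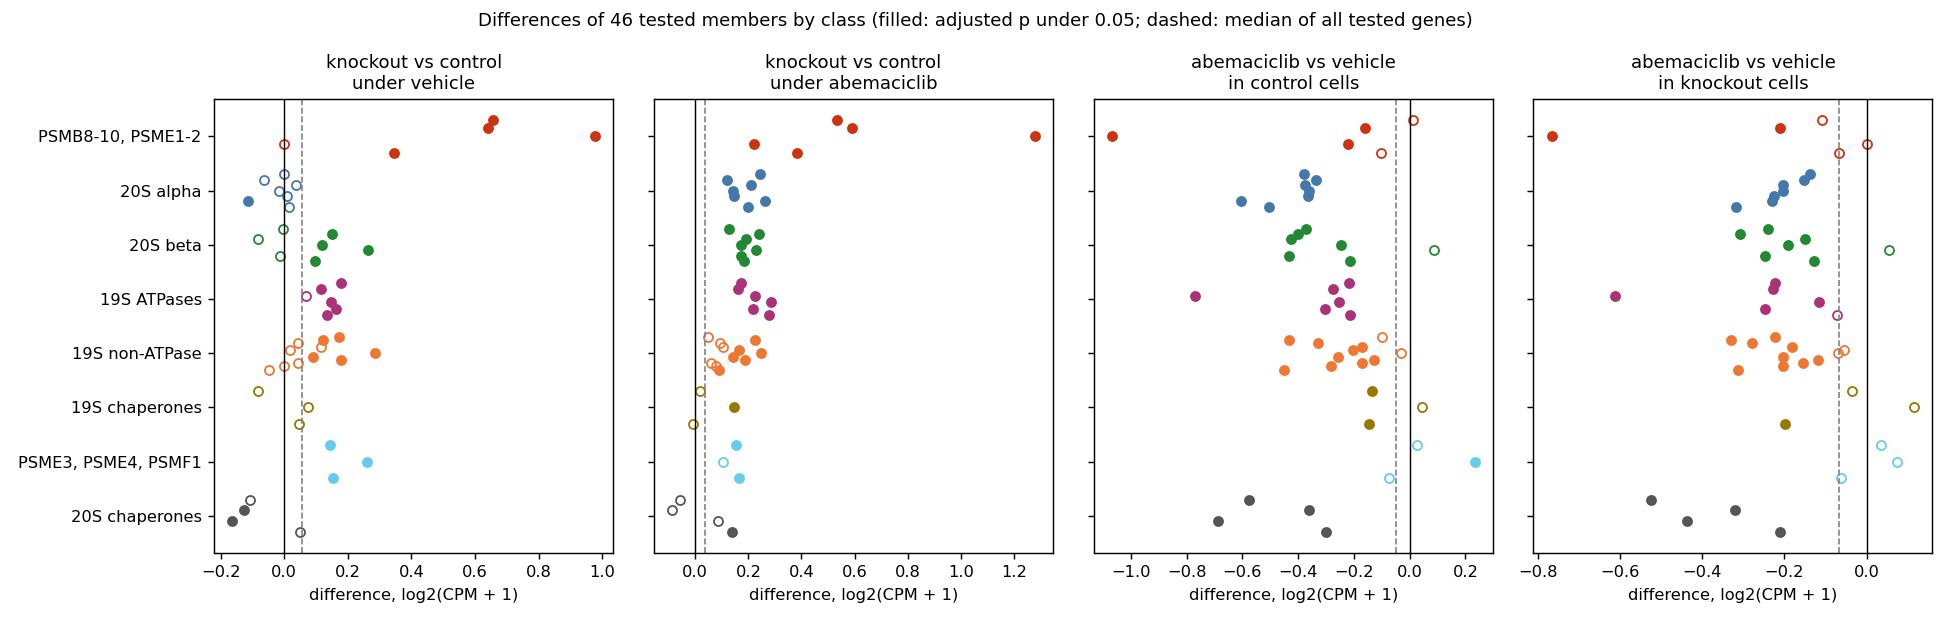
Difference on the log2(CPM + 1) scale of each of the 46 tested members in the 4 comparisons, a point for each gene by class, filled at a limma adjusted p under 0.05, with the median of all tested genes dashed (scales differ between panels). PSMB8, PSMB9, PSMB10 and PSME2 stand to the right of all other members in both genotype comparisons, and PSME1 in neither. PSMB9 stands far to the left in both drug comparisons.

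The drug effect was also compared between the genotypes. It was higher (less negative) in knockout cells for 11 of 46 members and lower for 0, against 4.68% of all genes higher and 6.16% lower. After rescaling 12 were higher, after quantile normalization 4, and in limma without the trend 3. Of the alpha subunits 6 of 7 were called and of the constitutive beta subunits 3 of 7, while 0 of the 17 subunits of the 19S passed (limma), 1 after rescaling. Beside PSME1, the called members were PSMA6, PSMB3, PSMG3, PSMA1, PSMB6, PSMA7, PSMA2, PSMA3, PSMA4 and PSMB1.

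PSMA6 had the largest such difference, 0.38 (SE 0.0572, limma adjusted p = 1.8e-05). It was 125, 119, 121 and 128 CPM in control cells with vehicle and 82.6, 80.2, 84.3 and 75.5 CPM with drug. In knockout cells it was 115, 117, 117 and 107 CPM with vehicle and 94.5, 99.0, 95.3 and 98.8 CPM with drug. The order of the genotypes thus turned, with control above knockout under vehicle and below it under the drug, without overlap. The vehicle part was small (-0.11), and its call did not hold under all settings, as given above. Reads of PSMA6 were whole in 2 of 16 libraries. PSMB3, a structural beta subunit, followed at 0.27 (limma adjusted p = 2.7e-04), with a fall from 837 ± 26.7 to 624 ± 37.8 CPM in control cells and from 790 ± 18.1 to 712 ± 32.8 CPM in knockout cells. PSMA1, which fell by 23.3% in control cells and fell by 9.13% in knockout cells, differed by 0.24 (adjusted p = 0.00445), and PSMG3 by 0.25 (adjusted p = 0.00446). In knockout cells alone the drug call of PSMA1 was lost after rescaling (-0.04) and quantile normalization (-0.08), and that of PSMB3 after rescaling (-0.06). As differences between the drug effects, the calls of PSMA1, PSMA6 and PSMB3 held under each alternative setting tried, and the other 8 were lost under at least 1.

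**Figure D5:**
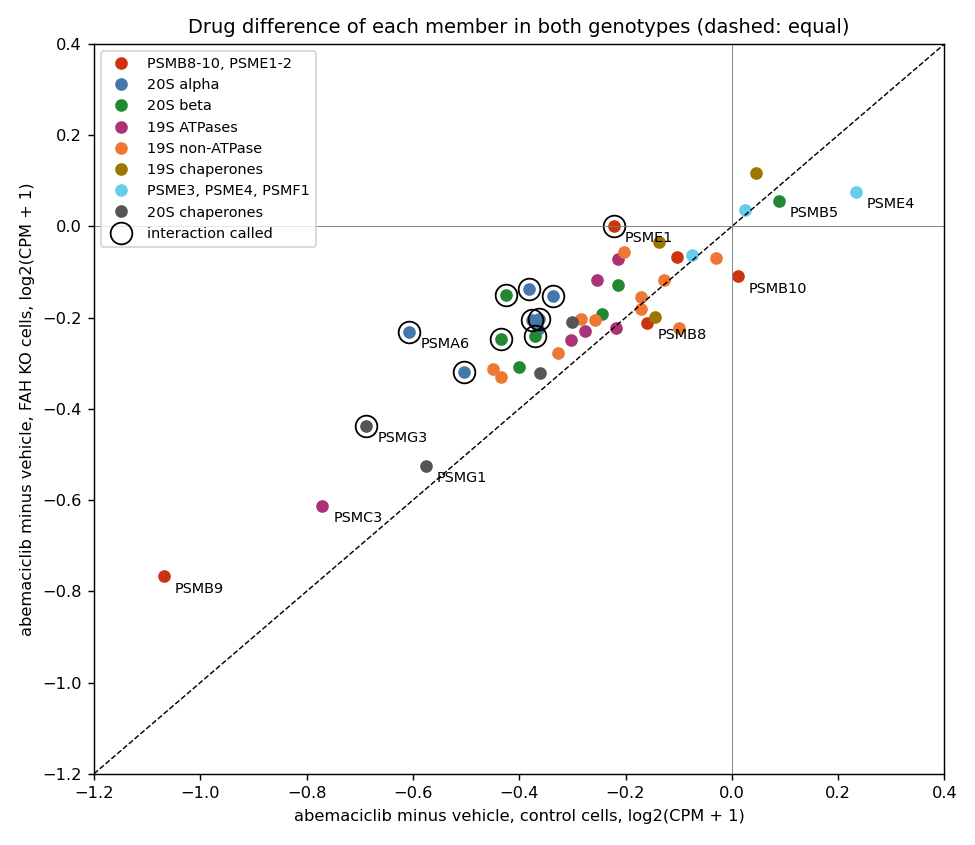
Difference between abemaciclib and vehicle on the log2(CPM + 1) scale in control cells (horizontal) and knockout cells (vertical), a point for each of the 46 tested members, with rings for the 11 whose drug effects differed and a dashed line where both are equal. Most points lie below 0 on both axes, and the ringed ones lie above the line.

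Genes around the proteasome were read from lists outside the symbol rule. Of 21 partners, which shuttle or unfold substrates or help assembly, 5 were higher and 3 lower in knockout cells under vehicle, and 10 and 3 under abemaciclib. The shares under vehicle, and the median of 0.05, were near those of all genes given above. Of all tested genes 18.6% were higher and 11.3% lower under abemaciclib. With the drug 8 partners were lower and 1 higher in control cells, where 31.1% of all genes were lower and 19.6% higher. In knockout cells 8 were lower and 0 higher, against 27.4% and 11% of all genes. After rescaling the 4 splits were 3 and 4 (higher and lower), 7 and 3, 4 and 7, and 6 and 4. The shares of all genes were then 17.4% and 18.4%, 13.4% and 14.7%, 25.8% and 24.7%, and 19.9% and 17.5%. The ubiquitin receptor ADRM1, a 19S subunit without a PSM symbol, was higher in knockout cells by 0.41 and 0.42 and lower with the drug (-0.40 in each genotype). The unfoldase VCP was higher in knockout cells (0.30 and 0.28).

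NFE2L1, the transcription factor that raises proteasome genes when the proteasome is blocked, was lower in knockout cells under vehicle (-0.25, limma adjusted p = 2.5e-04), and did not pass in the other 3 group comparisons (-0.11 to 0.04). Its activity is known to be set by processing of the protein, which these data do not measure. Of the 7 genes of its axis 4 were higher and 1 lower in knockout cells under vehicle, where rescaling left 3 and 2. The shares of all tested genes there were 24.6% higher and 13.1% lower. With the drug 2 were higher and 2 lower in control cells, and 1 and 2 in knockout cells, or 2 and 1, and 3 and 0, after rescaling. Before rescaling, these drug splits were near the shares of all genes given above for each genotype. The partner MAFK was higher with the drug in control (1.12) and knockout cells (0.66). The partner MAFG (-0.47 and -0.26) and the related factor NFE2L2 (-0.19 and -0.15) were lower in both. Under abemaciclib MAFK (0.26) and NFE2L2 (0.24) were higher in knockout than in control cells.

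Of 14 tested regulators of the inducible genes, 10 were higher and 1 lower in knockout cells under vehicle (10 and 1 after rescaling). Under abemaciclib 8 were higher and 1 lower (7 and 1 after rescaling). Of all tested genes 24.6% were higher and 13.1% lower under vehicle, and 18.6% and 11.3% under abemaciclib. IRF1 is 1 of the IRF factors, whose binding was not measured here. It went from 3.76 ± 0.366 to 11.4 ± 0.385 CPM under vehicle (1.38, limma adjusted p = 3.8e-13) and from 3.95 ± 0.742 to 9.54 ± 0.725 CPM under abemaciclib (1.10). The NF-kappaB subunit RELB was higher by 2.06 and 1.77. The kinase JAK1 was the one that was lower (-0.64 and -0.92). Neither IRF1 nor any inducible proteasome gene was called higher with the drug, under limma at adjusted p under 0.05.

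Among 15 genes of MHC class I peptide loading, 11 were higher and 1 lower in knockout cells under vehicle (10 and 2 after rescaling). Under abemaciclib 11 were higher and 2 lower (10 and 2 after rescaling). The shares of all tested genes were 24.6% higher and 13.1% lower under vehicle, and 18.6% and 11.3% under abemaciclib. TAP1, the neighbour of PSMB9, was at 50.2 ± 1.75 CPM in control and 80.3 ± 3.16 CPM in knockout libraries under vehicle (0.67), and at 51.3 ± 1.16 and 76.7 ± 2.98 CPM under abemaciclib (0.57). Between drug and vehicle TAP1 differed by 0.03 (control cells, limma adjusted p = 0.602) and -0.07 (knockout cells, 0.243), where PSMB9 had -1.07 and -0.77. TAP2, the other transporter subunit, encoded beside PSMB8 and PSMB9, was lower with the drug (-0.53 and -0.33). Of the 15 genes 8 were higher and 2 lower with the drug in control cells (10 and 2 after rescaling). Over all tested genes 19.6% were higher and 31.1% lower there. The difference in drug effect between PSMB9 and TAP1 was not tested.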

How the data were processed

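RNA of 16 T47D libraries was sequenced, 4 in each of 4 groups that the titles in the labels define. The submitters' processing notes name the build GRCh38 and the tools STAR 2.7.11, SAMtools 1.22.1, featureCounts (Subread 2.1.1) and MultiQC 1.32. Which annotation, strand setting and rule for shared reads were used is not given in the sources used here. The authors deposited 1 table of counts per 1000000 reads (CPM), whose libraries sum to that number with 92 spike-in features, not tested here. The worth of 1 read was taken from the steps between the lowest values, and 70.2 to 71.8% of values above 0 came out whole within 0.02 reads, too few for a test of counts. Uncertain were the 13 of 48 members with whole reads in at most 8 libraries, PSMA2, PSMA6, PSMB2, PSMC1, PSMC3, PSMC6, PSMD1, PSMD4, PSMD9, PSMD11, PSMD12, PSME2 and PSME4. Reads are not counted by molecule, so SDs cover more than counting error alone.

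The genes that reached 1 CPM in 4 or more libraries were fitted as log2(CPM + 1) with limma 3.58.1 in R 4.3.3 (empirical Bayes, mean trend, two-sided, Benjamini-Hochberg). The fit was tested on simulated data first. Alternatives were a pseudocount of 0.1, no filter or 5 CPM, median-of-ratios rescaling, quantile normalization, no trend, the compared groups alone, a replicate block and leaving out each library. Named were the 5 inducible genes, PSMB5, PSMB6, PSMB7 and PSME3, up to 5 called members in each direction of a comparison, up to 4 called genes of each other list, and those needed to account for a count. The members and lists were chosen with earlier results of these data known. A few items of these lists and of the motif search are not reported here. Motifs and promoters were read with Python 3.11.15.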

Additional observations from a re-analysis of the deposited data

Results flagged for a closer look

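A library stood apart from the other 3 of its group in 3 of the 80 groups tested (20 named members in 4 groups each), where chance gives about 1 in 20. PSMB9 was at 14.9 CPM in control vehicle replicate 1 and at 11.7 to 11.9 CPM in the others. PSMA6 was at 107 CPM in knockout vehicle replicate 4 and at 115 to 117 CPM in the others. PSMA1 was at 135 CPM in knockout abemaciclib replicate 2 and at 130 to 131 CPM in the others.

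The drug effect differed between knockout and control cells, by the interaction term of limma, for 11 members. On the log2 scale the differences were 0.38 for PSMA6, 0.27 for PSMB3, 0.25 for PSMG3, 0.24 for PSMA1, 0.22 for PSME1 and 0.19 for PSMB6. They were 0.18 for PSMA7, 0.18 for PSMA2, 0.17 for PSMA3, 0.16 for PSMA4 and 0.13 for PSMB1. The calls of PSMA7, PSMA2, PSMA3, PSMA4, PSMB1 and PSMB6 were lost after quantile normalization and in limma without the trend. Those of PSMB1 and PSMB6 were also lost without any 1 of 9 and 8 libraries.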

How the results depend on the processing

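The genotype differences of PSMB8, PSMB9, PSMB10 and PSME2 and the drug differences of PSMB9 kept their direction and their call under all alternatives run. Counts of called members moved with library scaling and, for the interaction, with the trend of limma. After median-of-ratios rescaling 10 members were higher and 8 lower in knockout cells under vehicle, 1 was lower under abemaciclib, and 4 were higher with the drug in control and 4 in knockout cells. After quantile normalization 1 was lower in knockout cells under abemaciclib, 5 were higher with the drug in control and 4 in knockout cells, and 4 had a higher interaction. In limma without the trend 3 had a higher interaction. The cause was not tested. The count of members higher with the drug in knockout cells, 0, was 1 at 5 CPM, 1 with only the groups compared and 1 with the replicate block. Same-numbered libraries did not deviate together (correlations of -0.0367 to 0.0603 over 24 pairs, own number best in 14 of 48), and the replicate block changed no named call. Without 1 library each, the members lower in knockout cells numbered 2 to 5 under vehicle and 0 to 1 under abemaciclib, and those higher with the drug 1 to 2 in control and 0 to 1 in knockout cells.

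Some values near 0 that were not called changed sign. With the drug in knockout cells PSMB10 was 0.0169 after quantile normalization, and PSME2 0.0267 after rescaling and 0.0140 after quantile normalization. Without 1 library each, the knockout difference under vehicle ranged from -0.0280 to 0.00447 for PSMB6 and -0.0288 to 0.0427 for PSME1. The drug difference ranged from -0.0264 to 0.0854 for PSMB10 in control cells and -0.0428 to 0.0288 for PSME1 in knockout cells, and the interaction of PSMB8 from -0.0969 to 0.00320. At about 10 reads per CPM, members of a few CPM carry the largest counting error.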
